A study of Homo sapiens with 12 samples.

Results

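The genes described here had an expected count of 0 in every library without a short-chain fatty acid (SCFA) and were present in every library with one. They were chosen by their counts: 0 in all 4 Ctrl and TN libraries, and at least 3 in each of the 8 libraries of PRTN, BUTN, TNPR and TNBU. The rule gave 233 of the 58233 genes listed, or 0.400%. It also took 0.842% of the 27685 genes that were at 0 in all 4 Ctrl and TN libraries. Because that contrast selected the genes, their difference between SCFA and Ctrl or TN libraries is given as a description and was not tested.

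RNA came from HK2, an immortalized human line derived from the epithelial cells of the proximal tubule (TECs), in 6 groups of 2 biological replicates. Ctrl cells were untreated and TN cells received TNF-α at 5 ng/mL for 3 h. PRTN and BUTN cells had propionate at 15 mM or butyrate at 3 mM for 24 h before the same TNF-α, and TNPR and TNBU cells had them after it. All 4 SCFA groups therefore also received TNF-α, and the labels name no group with an SCFA alone. The labels name no group kept for the added 24 h without an SCFA, so SCFA and time in culture cannot be told apart. The 24 h of SCFA fell before TNF-α in PRTN and BUTN and after it in TNPR and TNBU. Order of treatment and time since TNF-α therefore cannot be told apart either. One protocol label names thapsigargin and JQ1, whereas the labels of single libraries name TNF-α and the SCFA, which were followed. HK2 is a single line, so the values describe that line.

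The genome of a differentiated cell keeps most genes of other tissues off, in part through chromatin whose histones carry few acetyl groups. Histone deacetylases remove those groups, and butyrate, and more weakly propionate, are known inhibitors of these enzymes. Genes made for neurons, muscle or the germ line are textbook examples of genes held silent in an epithelial cell.

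The promoters of a few of these genes are shown because the genes shared an on and off pattern and came from different tissues. RefSeq windows on GRCh38.p14, from 250 bases before to 50 after the annotated start, were matched for 142 of the 233 genes. Capitals mark matches, on either strand, to the GC box GGGCGG, the CCAAT box CCAAT, the TATA box TATAAA, or the left part TTCAGCACC and right part GGACAGCGC of RE1, the element read by the neuronal repressor REST. NOVA2 had the highest level among the coding genes described, LRP2 is a tubule gene, and TPH2 is a neuronal gene whose window held both RE1 parts.
NOVA2, chr19:45973816-45974115, minus strand: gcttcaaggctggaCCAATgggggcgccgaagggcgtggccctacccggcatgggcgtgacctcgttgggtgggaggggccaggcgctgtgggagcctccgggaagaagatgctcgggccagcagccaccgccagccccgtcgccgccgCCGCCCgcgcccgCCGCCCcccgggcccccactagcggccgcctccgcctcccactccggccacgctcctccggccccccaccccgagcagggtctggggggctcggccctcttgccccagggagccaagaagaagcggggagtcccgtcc
LRP2, chr2:169362485-169362784, minus strand: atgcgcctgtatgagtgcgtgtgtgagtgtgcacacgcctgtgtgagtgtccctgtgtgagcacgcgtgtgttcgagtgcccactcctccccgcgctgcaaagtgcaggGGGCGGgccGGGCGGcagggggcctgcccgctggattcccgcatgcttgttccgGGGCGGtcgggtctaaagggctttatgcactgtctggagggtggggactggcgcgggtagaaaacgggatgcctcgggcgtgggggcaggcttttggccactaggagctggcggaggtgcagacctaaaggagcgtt
TPH2, chr12:71938595-71938894, plus strand: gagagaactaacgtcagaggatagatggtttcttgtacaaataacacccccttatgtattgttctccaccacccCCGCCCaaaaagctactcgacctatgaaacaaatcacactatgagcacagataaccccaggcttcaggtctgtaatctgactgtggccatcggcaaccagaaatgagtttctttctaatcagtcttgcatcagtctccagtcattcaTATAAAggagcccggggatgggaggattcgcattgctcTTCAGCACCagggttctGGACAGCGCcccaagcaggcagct

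The 3 windows differ in base composition, with 76.7%, 65.3% and 48.7% G and C in NOVA2, LRP2 and TPH2. Their CG dinucleotides numbered 30, 23 and 7. GC boxes were in all 3 windows and in 45% of the 35116 promoters of the table, CCAAT boxes in the NOVA2 window and in 34.6% of all promoters, and a TATA box in the TPH2 window and in 11.5% of all. Both RE1 parts were found in 7 promoters of the table, 0.0199% of them, and in 1 of the 142 matched here, that of TPH2, whose window was picked after the matches were seen. A match describes letters only and was not tested as a site. Entries covered 60.9% of the 233 genes and 123 of their 164 protein-coding genes, under the 80% needed, so a comparison of promoter composition between gene sets is void.

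Across the 12 libraries the expected counts summed to between 27260778 and 33839947. Counts of the 233 genes summed to between 3736 and 5850 in an SCFA library. Their summed level in CPM, counts relative to the library total after TMM scaling, was 167 and 194 CPM in the second replicates of TNPR and TNBU, against 123 to 146 CPM in the other 6 SCFA libraries, so results after TNF-α are given with and without those 2 libraries. Of 20 proximal tubule markers, 8 had at least 3 counts in every Ctrl and TN library, led by CDH6 at 744 to 1122 CPM. The transporters SLC22A6, SLC22A8 and SLC22A12, which define the tubule in tissue, were at 0 in all Ctrl and TN libraries. The epithelial keratins KRT8 and KRT18 were at 701 to 785 and 354 to 370 CPM there.

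Of the 27685 genes at 0 in Ctrl and TN, 26059 reached 3 counts in no SCFA library and 620 in a single one. The number was 71 for 6 libraries and 87 for 7, against 233 for all 8. Without the second replicates of TNPR and TNBU, an alternative chosen after seeing the data, the rule gave 247 genes. The opposite pattern, at least 3 counts in all 4 Ctrl and TN libraries and 0 in all 8 SCFA libraries, was found for 2 genes. Of all genes tested against TN, 18.4% were called higher in all 4 SCFA groups and 11.9% lower in all 4 (limma-voom, adjusted p under 0.05 and over 1.5-fold).

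**Figure D1:**
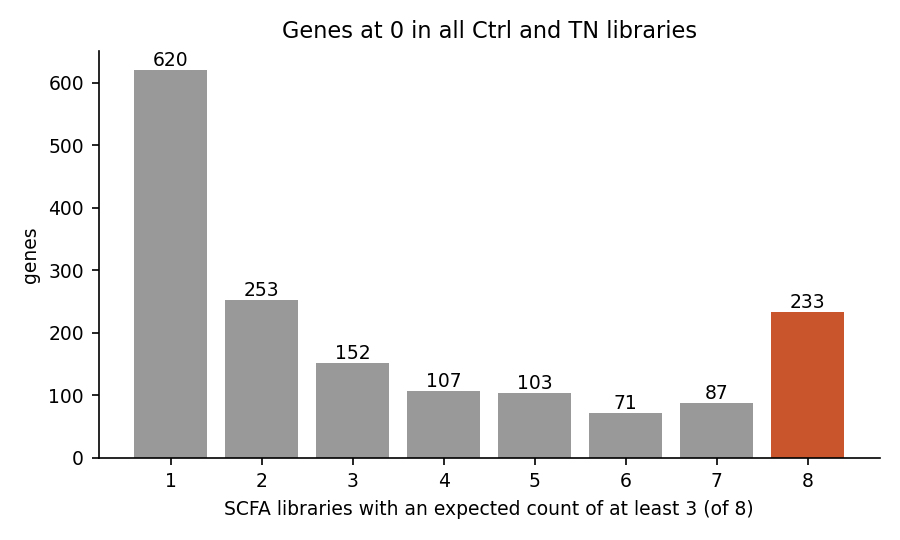
Number of genes (vertical axis) at 0 in all 4 Ctrl and TN libraries by how many of the 8 SCFA libraries held an expected count of at least 3 (horizontal axis). The bar for all 8 libraries, 233 genes, is higher than those for 3 to 7 libraries, which hold 71 to 152 genes; the 26059 genes on in no SCFA library are not drawn.

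The same appearance was seen pair by pair. Between the 2 libraries of a group and the 2 of TN, 784 genes went from 0 to at least 3 counts for PRTN, 792 for BUTN, 771 for TNPR and 743 for TNBU, while 43 to 55 went the other way. Between Ctrl and TN, 24 genes appeared and 47 disappeared. Pre-treatment alone gave 317 genes on in all 4 of its libraries, and treatment after TNF-α gave 306. Genes on with one SCFA or timing and at 0 with the other were few. Among genes at 0 in Ctrl and TN, 0 were on in both propionate groups and at 0 in both butyrate groups, and 1 showed the reverse, a gene with a clone name. S100A8, PLA2G7 and CCL3, 3 genes of myeloid inflammation, were on in both pre-treated groups and at 0 in both groups treated after TNF-α. They were named after their values were seen.

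Levels of the 233 genes were low. Their mean over the 8 SCFA libraries had a median of 0.36 CPM and a range of 0.111 to 5.22, with 30 genes at 1 CPM or more. That median is at the 27.7th percentile of the 24321 genes tested, whose own median was 4.07 CPM. Where a library had no count the gene was taken to lie below 3 counts, on average 0.107 CPM in a Ctrl or TN library, which covers counting error only. Against that floor the genes were at least 3.35-fold higher at their median, and 28 were at least 10-fold higher. In bulk RNA, a few cells at a high level and all cells at a low level cannot be told apart.

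Protein-coding genes made up 164 of the 233, or 70.4%, against 12% of all genes at 0 in Ctrl and TN and 33.8% of all genes listed. The remainder were 51 long non-coding RNAs, 13 pseudogenes, 2 of other classes and 3 without an entry in the annotation release used. Of the 3309 silent protein-coding genes, 4.96% were on in all 8 SCFA libraries, compared with 0.712% of silent long non-coding RNAs and 0.131% of silent pseudogenes. Large silent families gave few members. None of 354 silent olfactory receptor genes and none of 633 silent immunoglobulin and T cell receptor segments met the rule, and 1 of 109 silent keratin and keratin-associated genes did.

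Genes were assigned by hand, after the members were known, to a tissue in which they are known. This gave 41 for the nervous system, 15 for blood and immune cells and 9 for skin and lining epithelia. Embryonic mesenchyme had 8 and the kidney tubule 8. VIL1, counted with the tubule, is on a list of stomach and intestine genes. The germ line and early embryo had 6, the stomach, gut and pancreas 6, and striated muscle 5. SSX6, of a cancer testis family, was left unassigned and is not in the germ line count. Another 37 had a known role outside these tissues, and 98, mostly clone-named or non-coding genes, were not assigned. Counted from lists of tissue genes, 28 of the 272 silent listed genes were on in all 8 SCFA libraries, or 10.3%.

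**Figure D2:**
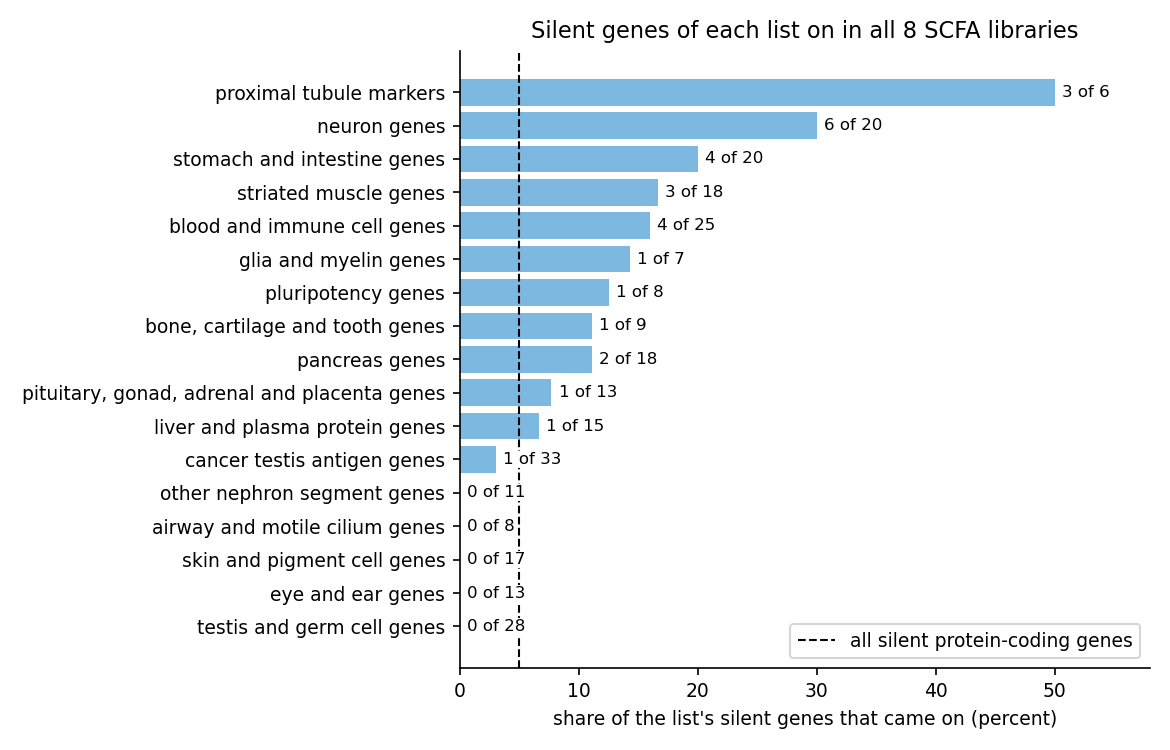
Share of the silent genes of each tissue list that were on in all 8 SCFA libraries (horizontal axis, percent), for lists with at least 5 genes at 0 in Ctrl and TN; counts stand beside the bars. The dashed line marks all silent protein-coding genes, 4.96%; the proximal tubule list, with 3 of 6, and the neuron list, with 6 of 20, lie farthest to its right, and 5 lists have no gene on. No test was made.

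Genes of the kidney tubule, the tissue of origin of the line, were among those at 0 in Ctrl and TN. LRP2 encodes megalin, the large endocytic receptor of the proximal tubule (chr2:169127109-169362534, minus strand, GRCh38). Its counts were 12 and 18 (PRTN), 17 and 25 (BUTN), 15 and 31 (TNPR) and 25 and 26 (TNBU). Both PRTN values were below both TNBU values, and the BUTN and TNPR values lay among them or above. The mean was 0.666 ± 0.231 CPM (SD over 8 libraries), at least 6.19-fold above the floor. MME, the brush border peptidase neprilysin, had 14 to 29 counts and a mean of 0.631 ± 0.166 CPM. HNF4A, a nuclear receptor that directs proximal tubule and liver genes, had 8 and 7 counts (PRTN), 10 and 22 (BUTN), 13 and 11 (TNPR) and 11 and 8 (TNBU).

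VIL1, the actin-bundling protein villin of brush borders, was assigned to the tubule by hand and is on the stomach and intestine list. It varied more between libraries. It had 53.9 and 35 counts (PRTN), 46.3 and 49.1 (BUTN), 11.3 and 40.8 (TNPR) and 17.6 and 19.2 (TNBU). The 4 pre-treated libraries and 1 TNPR library were high, and the other 3 were low. VIL1 overlaps USP37 on the opposite strand, which was at 56.5 CPM in Ctrl and TN and 71.5 CPM in SCFA libraries. BSND, the chloride channel subunit barttin of the distal nephron, reached 11 to 35 counts. XPNPEP2, a brush border aminopeptidase, reached 5 to 22, and PCK1, the gluconeogenic enzyme of the proximal tubule, 3 to 11.

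The best expressed markers of the same list moved the other way. The summed level of the 20 markers was 1373 to 1793 CPM in Ctrl and TN libraries and 271 to 355 CPM in SCFA libraries. CDH6, a cadherin of the developing proximal tubule, went from 744 to 1122 CPM to between 37.8 and 84.4 CPM. PAX8, a transcription factor of the renal lineage, went from 362 to 414 CPM to between 128 and 160 CPM. Of the 12 tested markers outside the 233 genes, 4 were higher than TN in all 4 SCFA groups (limma-voom, adjusted p under 0.05), namely ANPEP, AQP1, CUBN and SLC34A3, and 4 were lower, namely CDH6, CDH16, GGT1 and PAX8, beside 18.4% and 11.9% of all genes tested. A gene near 0 in Ctrl and TN, as ANPEP and SLC34A3 were, passed the filter through the SCFA libraries and could be called only higher. Of the 11 silent genes on a hand-made list of other nephron segments, among them UMOD and AQP2, none met the rule, and BSND, which is not on that list, did.

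By the hand assignment the nervous system had the most genes, 41, a count without a share of all silent nervous system genes beside it. On the lists of tissue genes, 6 of 20 silent neuron genes met the rule, or 30%. That is beside 3 of 6 silent proximal tubule markers and 4.96% of all silent protein-coding genes. NOVA2, an RNA-binding protein that directs splicing in neurons (chr19:45933734-45974044, minus strand), had 113 and 122 counts (PRTN), 103 and 107 (BUTN), 145 and 122 (TNPR) and 106 and 110 (TNBU). Its 8 values lay within 1.5-fold of each other, with a mean of 3.61 ± 0.398 CPM, at least 33.6-fold above the floor. CALB2, the neuronal calcium-binding protein calretinin (chr16:71358713-71390436, plus strand), had 102 and 94 counts in PRTN and 82 and 93 in BUTN. It had 114 and 151 counts in TNPR and 118 and 140 in TNBU, so that every library treated after TNF-α was above every pre-treated one.

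STMN4, a microtubule-destabilizing protein of the stathmin family in neurons, had 52 counts (each PRTN library), 68 and 81 (BUTN), 67 and 100 (TNPR) and 70 and 122 (TNBU). The PRTN libraries were the lowest, and the second replicate was the higher of the pair after TNF-α. Other genes of neuronal structure were lower. CELF3, a splicing regulator of the brain, had 13 to 24 counts, DCX, the doublecortin of migrating neurons, 5 to 18, and GAP43, a growth cone protein, 3 to 15. CHAT, which makes acetylcholine, had 3 to 11 counts, and TPH2, which makes the serotonin precursor in neurons, had 4.59 to 11.5. S100B, a glial calcium-binding protein, was at 0.713 ± 0.188 CPM.

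Channels and receptors were also on, some of them neural. The families counted here by symbol mix tissues. By the hand assignment RYR1 and CHRND belonged to striated muscle, ROR2 to embryonic mesenchyme and FGF19 to the stomach, gut and pancreas. TRPV4, OTOP2 and GPR4 were outside the named tissues. KCNK9, a background potassium channel, had 45 and 30 counts (PRTN), 23 and 36 (BUTN), 52 and 58 (TNPR) and 40 and 41 (TNBU). GABRQ and GABRA2, subunits of the GABA receptor, had 22 to 34 and 9 to 14 counts, and SCN1A, a sodium channel of neurons, had 3.52 to 12.7. Of 72 silent genes with ion channel symbols 10 were on in all 8 SCFA libraries, among them GRID2IP, a synapse protein and not itself a channel. Of 23 silent genes with symbols of receptor tyrosine kinases and their ligands 4 were on, ROR2, FGF19, EPHA8 and NTRK2. NTRK2 is the receptor of brain-derived neurotrophic factor. The shares were 13.9% and 17.4%, beside 4.96% of all silent protein-coding genes. G protein-coupled receptors gave 5 of 123 silent genes, or 4.07%, near that background. GPR4, a receptor that senses protons (chr19:45589764-45602212, minus strand), had 91.5 and 102 counts (PRTN), 108 and 113 (BUTN), 107 and 77.7 (TNPR) and 79 and 74 (TNBU). It shares exon sequence on the same strand with OPA3, which was at 34.7 CPM in Ctrl and TN and 20.2 CPM in SCFA libraries.

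Some neuron genes outside the 233 missed the rule through a low level in Ctrl or TN. SLC17A7, the vesicular glutamate transporter, went from at most 0.186 CPM in Ctrl and TN to between 21.7 and 28.3 CPM. SYP, the synaptic vesicle protein synaptophysin, went from at most 0.819 CPM to between 16.8 and 27.8 CPM. The summed level of the 66 neuron genes was 1330 to 1460 CPM in Ctrl and TN and 1454 to 1554 CPM in SCFA libraries. Of the 45 tested outside the 233, 30 were higher than TN in all 4 SCFA groups (limma-voom, adjusted p under 0.05 and over 1.5-fold). Lower in all 4 were 3, among them the abundant L1CAM and NEFH. Over all genes tested the shares were 18.4% and 11.9%. Neuron genes near 0 in Ctrl and TN could be called only higher.

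**Figure D3:**
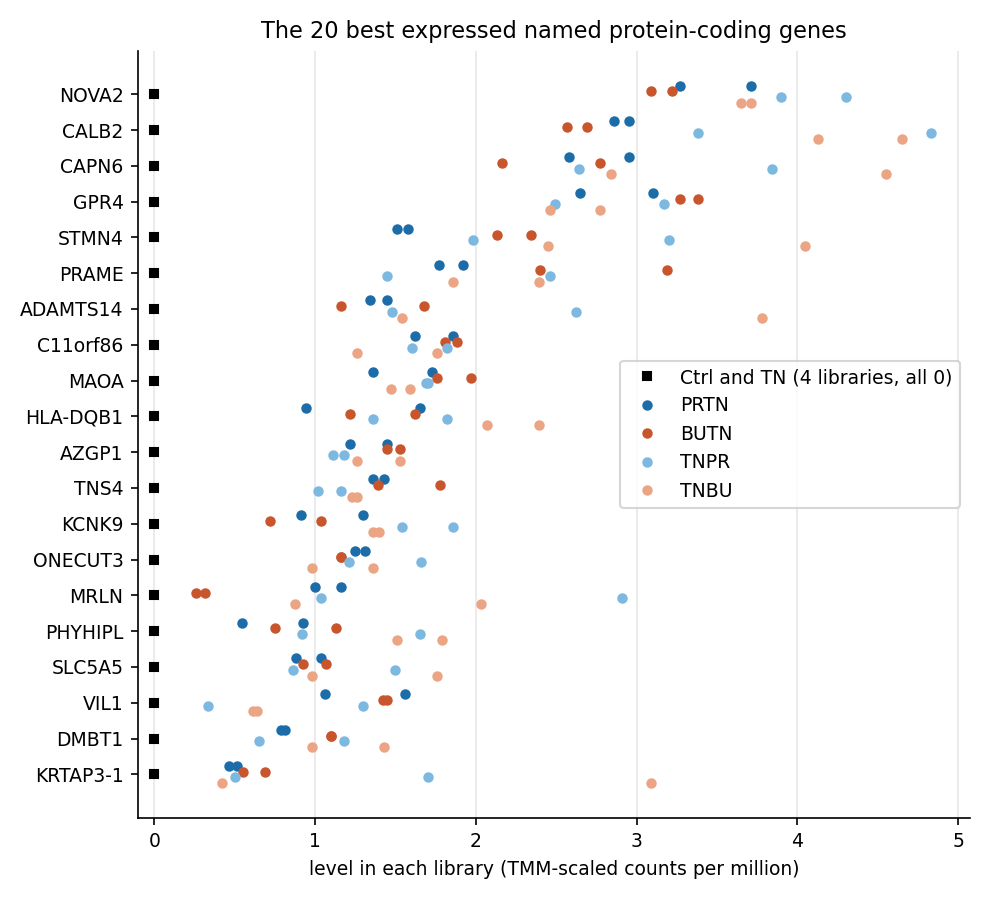
Levels of 20 protein-coding genes (vertical axis, ordered by mean) in each of the 8 SCFA libraries (horizontal axis, TMM-scaled CPM); each point is 1 library, colours mark the groups, and the black squares mark the 4 Ctrl and TN libraries at 0. RFPL4A, which shares counts with a near-identical copy, is left out; NOVA2 lies between 3.09 and 4.3 CPM, whereas MRLN and KRTAP3-1 spread from 0.26 to 2.91 and from 0.42 to 3.09 CPM.

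Transcription factors of embryonic patterning were on at lower levels. Of 75 silent homeobox, paired, SOX, forkhead and T-box genes, 8 met the rule, and of 29 silent basic helix-loop-helix genes 2 did, HAND1 and HAND2, which act in the heart and limb. These were 10.7% and 6.9%, beside the same 4.96%. TBX4, a factor of hindlimb and lung, had 21 to 51 counts, with the second TNBU replicate highest. HAND2 had 14.9 to 33 counts and HAND1 9 to 24. LMX1B and TLX3, homeobox factors of neuron development, had 6 to 18 and 7 to 20 counts. ONECUT3, a factor related to those of liver and pancreas, was higher at 1.26 ± 0.199 CPM. DPPA2, a factor of the early embryo and pluripotent cells, had 8 to 21 counts. It was the only 1 of 8 silent genes on a list of 20 pluripotency genes to meet the rule. SOX2 missed the rule through 1 count in a TN library. That list summed to 46.2 to 48.9 CPM in Ctrl and TN and 26.5 to 34.8 CPM in SCFA libraries. Of its 11 other tested genes, 4 were higher than TN in all 4 SCFA groups (limma-voom, adjusted p under 0.05 and over 1.5-fold). LIN28A and POU5F1 were lower in all 4. LIN28A went from 26 to 28.4 CPM to between 9.37 and 13.5 CPM, and POU5F1 from 18.2 to 19.8 to between 6.06 and 8.58.

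By the hand assignment muscle and germ line genes were few, 5 and 6. Of 18 silent genes on the striated muscle list 3 met the rule, or 16.7%, beside 4.96% of all silent protein-coding genes. The list summed to 212 to 287 CPM in Ctrl and TN and 964 to 1426 CPM in SCFA libraries. Of its 42 other tested genes, 19 were called higher than TN in all 4 SCFA groups and 2 lower (limma-voom, adjusted p under 0.05). Those near 0 in Ctrl and TN could be called only higher. Of all genes tested, 18.4% were higher and 11.9% lower. CKM, the creatine kinase of muscle, had 37 and 24 counts (PRTN), 27 and 26 (BUTN), 21 and 32 (TNPR) and 21 and 32 (TNBU), and all groups overlapped. RYR1, the calcium release channel of skeletal muscle, had 7 to 25 counts and CHRND, a subunit of the muscle acetylcholine receptor, 8 to 14. PRAME, a tumour antigen of the testis, had 61 and 63 counts (PRTN), 102 and 83 (BUTN), 49 and 77 (TNPR) and 53 and 72 (TNBU). It was 1 of the 33 silent genes on a hand-made list of cancer testis genes, and no other gene of that list met the rule. With PRAME, the list summed to 0.201 to 0.407 CPM in Ctrl and TN and 2.63 to 6.22 CPM in SCFA libraries. Of its 11 other tested genes, 4 were called higher than TN in all 4 SCFA groups and 0 lower. SSX6, of the SSX cancer testis family and itself not on the list, is also among the 233. On the testis and germ cell list, 0 of 28 silent genes met the rule. That list summed to 798 to 851 CPM in Ctrl and TN and 693 to 752 CPM in SCFA libraries.

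GUCA2B, the gut hormone uroguanylin, had 17 to 43 counts, ATP4A, the proton pump of the stomach, 6 to 13, and GAST, which encodes gastrin, 3 to 10. HLA-DQB1, a chain of an antigen-presenting receptor, had 31 to 72 counts, and BLK and TYROBP, signalling proteins of B cells and of myeloid and NK cells, had 11 to 31 and 9 to 34. The summed level of the 60 blood and immune genes was 24.5 to 28.2 CPM in Ctrl and TN and 76.1 to 97.4 CPM in SCFA libraries. Its part in the level of any single gene was not tested.

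Several well-expressed genes are known from other tissues or from many. CAPN6, a calpain without protease activity that binds microtubules, had 89 and 97 counts (PRTN), 69 and 96 (BUTN), 89 and 120 (TNPR) and 81 and 137 (TNBU). ADAMTS14, which trims procollagen, had 37 to 58 counts in the pre-treated libraries, 50 and 82 in TNPR, and 44 and 114 in TNBU. MAOA, the monoamine oxidase, was even over the libraries at 42 to 63 counts, as was AZGP1, a secreted lipid-mobilizing protein, at 36 to 50. SLC5A5, the iodide transporter of the thyroid, had 27 to 53 counts. Per kilobase of exon, CALB2 at 2.06 CPM per kb was above GUCA2B at 1.45 and GPR4 at 0.924, whereas NOVA2 and LRP2, with longer transcripts, were at 0.393 and 0.0413 CPM per kb.

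Of the 51 long non-coding RNAs, whose median level was 0.386 CPM, the best expressed had clone names, and 1 of them lies opposite TM4SF18, a gene that went from 43.3 CPM in Ctrl and TN to 3.44 CPM in SCFA libraries. Exons of 68 of the 233 genes overlapped exons of another gene, in 52 cases on the opposite strand. For 15 of them the partner was at 1 CPM or more in Ctrl and TN, where the gene itself was at 0. Whether the counting used strand is not given in the sources used here. Counts of 68 genes included a value that was not whole, as arises where reads match more than 1 gene.

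The genes lay on all chromosomes except Y. Chromosome 19 held the most, 23, which is 2.35% of its silent genes against 0.842% genome-wide. Among silent protein-coding genes it held 22 of 212, or 10.4%, against 4.96% genome-wide, and chromosome 22 held 6 of 42. Within 100000 bases of another of the 233 lay 29 genes, in 16 pairs, among them CAPN6 and DCX, KLK4 and KLK6, ZNF280A and PRAME, and TRIM29 and POU2F3, while CELF3 and RIIAD1 overlapped. Of the nearest protein-coding neighbours outside the set that were tested, 62 of 180 (34.4%) were higher than TN in all 4 SCFA groups, against 21.3% of 15755 tested protein-coding genes outside the set. Neighbours near 0 in Ctrl and TN passed the filter through the SCFA libraries and could be called only higher. Neighbours may also be shared and genes are not independent replicates, so the shares are a description.

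The next question was whether the levels of these genes differed by SCFA or by its timing. Timing here means the order of treatment together with the time since TNF-α, which the design does not separate. The rule did not compare the SCFA groups with each other. It did ask for at least 3 counts in every SCFA library, so genes absent with an SCFA or a timing were left out beforehand. No contrast among the 4 SCFA groups had a called gene among the 233, all of which were tested (limma-voom on all 12 libraries, Benjamini-Hochberg adjusted p under 0.05 and over 1.5-fold). PRTN against BUTN gave 0, beside 0.169% of all 24321 genes tested, and TNPR against TNBU gave 0, beside 0.00822%. TNPR against PRTN gave 0 beside 0.160%, TNBU against BUTN gave 0 beside 0.267%, and the difference between the time effects of the SCFAs gave 0 beside 0.00%. At an unadjusted limma-voom p under 0.05 the numbers were 17, 13, 15, 23 and 3 in the same order. These were 7.30%, 5.58%, 6.44%, 9.87% and 1.29% of the 233, each below the 14.0%, 8.63%, 11.2%, 14.4% and 3.84% of all genes tested. The quasi-likelihood test of edgeR called 0 in each contrast, with 6, 4, 9, 9 and 0 at an unadjusted p under 0.05, and DESeq2 called 0, with 1, 0, 1, 4 and 0. DESeq2 gave an adjusted p for 5, 0, 14, 0 and 233 of the 233 genes.

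These counts do not show that the groups were alike. The median standard error of a log2 difference was 0.43 to 0.44 in the contrasts of 2 groups and 0.63 for the difference of the time effects. Differences near that size were therefore not detectable, and much larger ones could also be missed. The largest log2 difference for TNBU against BUTN, 2.19, was not called. The doses of propionate and butyrate differed, so the contrast compares those doses. The Ctrl and TN libraries, all at 0, also enter the estimate of spread. In a fit of the 8 SCFA libraries alone, 10, 7, 11, 16 and 1 genes had an unadjusted p under 0.05, and 0 were called.

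In size, the groups were near each other, among genes that the rule asked to be on in all of them. The ratio of the highest to the lowest group mean had a median of 1.67 over the 233 genes, and it was under 2 for 175 of them (75.1%) and at least 3 for 10. Spearman correlations of the 233 levels between pairs of groups were 0.823 to 0.884, across genes that are not independent replicates. The median log2 difference of the 233 genes was -0.09 for PRTN against BUTN and -0.15 for TNPR against TNBU, propionate being lower both times. It was 0.10 for TNPR against PRTN and 0.14 for TNBU against BUTN. Over all genes tested the limma-voom medians were between -0.02 and 0.00, where those of the 233 were -0.14, -0.18, 0.11 and 0.17.

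**Figure D4:**
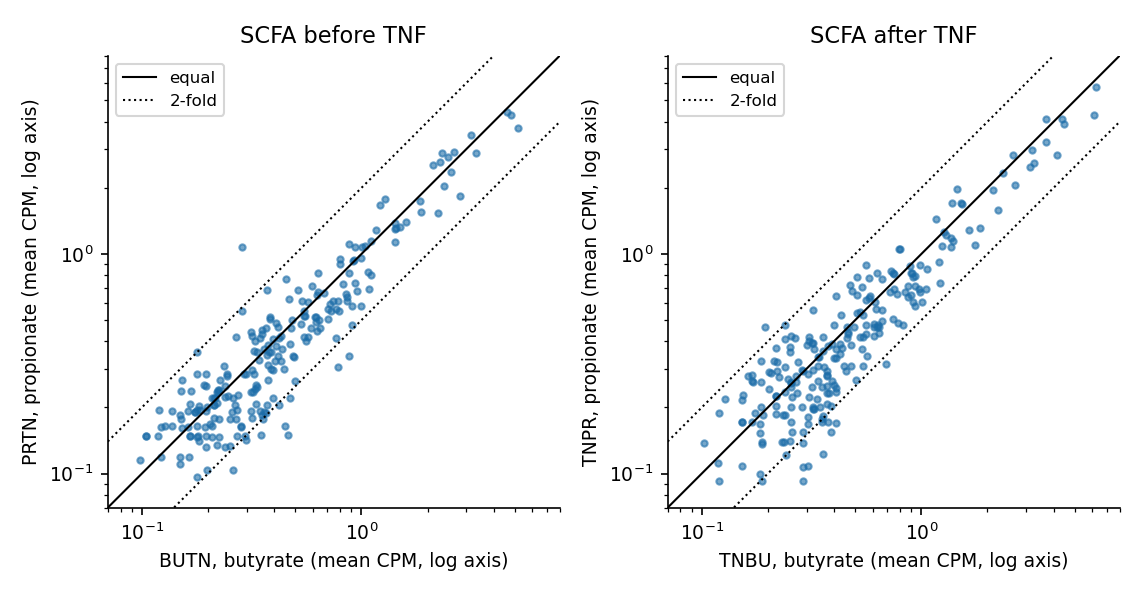
Mean level of each of the 233 genes with propionate (vertical axis) against butyrate (horizontal axis), in CPM on log axes, before TNF-α (left) and after it (right). Each point is 1 gene and the mean of 2 libraries, the solid line marks equal levels and dotted lines 2-fold differences; most points lie between the dotted lines, and the point far above them on the left is MRLN.

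The medians after TNF-α rested on single libraries. The second replicate exceeded the first for 185 of the 233 genes in TNBU and 168 in TNPR, against 121 in PRTN and 117 in BUTN. Its median excess was 0.42 and 0.24 on the log2 scale in TNBU and TNPR, where the median of all genes tested was 0.02 and 0.00. The second TNBU library was the highest of the 8 for 86 genes. Without it, the median for TNBU against BUTN was -0.15, and that for TNPR against TNBU was 0.10. Without the second TNPR library, the median for TNPR against PRTN was -0.08.

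**Figure D5:**
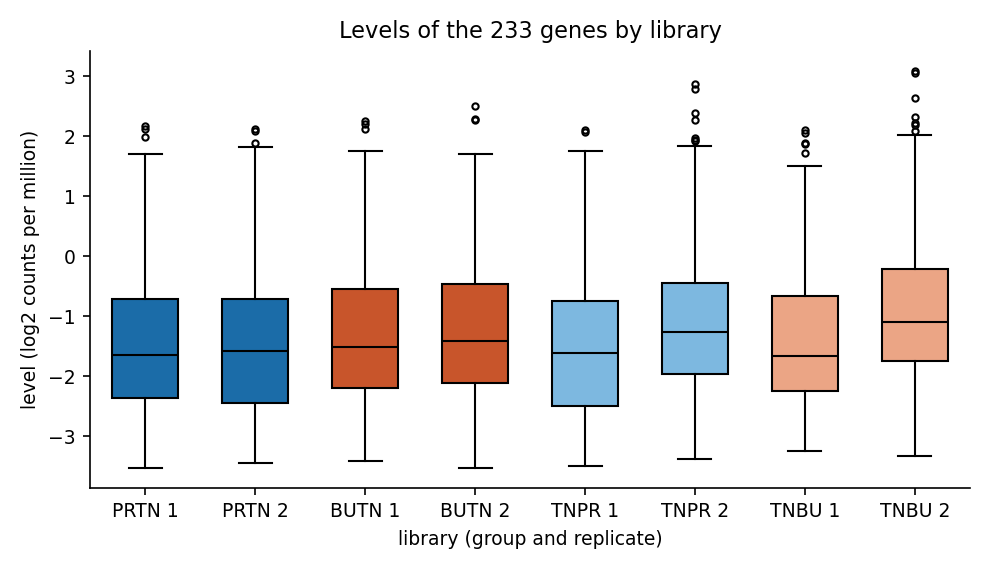
Levels of the 233 genes in each SCFA library (vertical axis, log2 CPM; horizontal axis, group and replicate). Boxes span the quartiles with the median as a line, whiskers reach 1.5 times the box height at most and circles are genes beyond them; the medians run from 0.315 CPM in TNBU 1 to 0.465 CPM in TNBU 2.

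The genes nearest to a call were few. HRNR, hornerin of the cornified skin, had 20 and 15 counts (PRTN), 7 and 19 (BUTN), 30 and 40 (TNPR) and 31 and 49 (TNBU). Every library treated after TNF-α was above every pre-treated one, with a log2 difference of 1.87 ± 0.41 (SE) for TNBU against BUTN (limma-voom adjusted p = 0.0596). CALB2 differed by 0.74 ± 0.18 in the same contrast (limma-voom adjusted p = 0.0895). MRLN, a micropeptide that inhibits the calcium pump of muscle, had 40 and 33 counts (PRTN), 10 and 9 (BUTN), 35 and 91 (TNPR) and 25 and 61 (TNBU). Its ratio of the highest to the lowest group, 6.89, was the largest of the 233, with BUTN lowest and a log2 difference of 2.19 ± 0.68 for TNBU against BUTN (limma-voom adjusted p = 0.169).

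TRIM29, a protein of squamous epithelia, had the smallest adjusted p for PRTN against BUTN, at 5 and 6 against 12 and 18 counts and a log2 difference of -1.38 ± 0.39 (limma-voom adjusted p = 0.138). KRTAP3-1, a keratin-associated protein of hair, had 16 and 17 counts (PRTN), 22 and 19 (BUTN), 17 and 53 (TNPR) and 12 and 93 (TNBU), where the replicates of 1 group differed more than the groups did. Leaving out the first TNBU library brought 4 genes to a call for TNBU against BUTN, ADAMTS14, HRNR, KRTAP3-1 and MRLN, in a fit that called 318 of all genes tested against 65 with all libraries. Leaving out either TNPR library brought 3, CALB2, HRNR and MRLN, in fits that called 125 and 127 of all genes, and the other libraries brought none in that contrast. The calls over all genes thus rose as well, and nothing particular to the 233 is read from these calls. For TNPR against PRTN, leaving out either TNBU library brought 1 gene with a clone name, where 71 of all genes were called against 39.

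At the limit of the rule the numbers depended on it. Of the 233 genes 52 had a lowest count of exactly 3, among them CHAT, EPHA8 and RUNX1T1. Just outside, 87 silent genes failed in 1 SCFA library, 57 of them with at least 2 counts there and 19 of them in the first TNBU replicate, the shallowest library. Another 260 genes reached 3 counts in all 8 SCFA libraries and were above 0 in a single Ctrl or TN library, 183 of them with at most 1 count. They held genes of higher level than any of the 233, neuronal and other. SPANXN3, of the SPANX family, had 2 counts in a TN library and at least 213 in each SCFA library. Its mean was 10 CPM, beside 9.61 CPM for NGFR. NGFR, the low-affinity neurotrophin receptor, had 1 count in a Ctrl library and at least 267 in each SCFA library (median 304). ELAVL3, an RNA-binding protein of neurons, and SNCB, β-synuclein, each had 1 count outside the SCFA groups and at least 181 and 205 in each SCFA library.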

How the data were processed

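RNA of 12 HK2 libraries was made with a stranded poly(A) kit and sequenced by the authors, who ran FastQC 0.11.5, STAR 2.6.1a and RSEM on GRCh38 with GENCODE release 26. The RSEM version and its strand setting are not given in the sources used here. What the authors deposited is a table of expected counts, 1 value for each gene and library and not normalized, and 19.2% of them are not whole. The 45 rows of pseudoautosomal copies on Y were dropped. Totals were 27260778 to 33839947 counts a library, and limits from a count of 0 cover counting error only.

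TMM factors and limma-voom (limma 3.58.1, edgeR 4.0.16, R 4.3.3) were fitted to all 12 libraries, with 1 mean for each group, on 24321 genes whose geometric mean of count + 1, minus 1, was at least 1. Calls needed a Benjamini-Hochberg adjusted p under 0.05 over all genes tested and more than 1.5-fold. The edgeR quasi-likelihood test and DESeq2 1.42.0 were run on rounded counts as alternatives, beside other scalings, filters, sample sets and each library left out, and the scripts were tested on simulated data. Medians of differences used log2 of group mean CPM + 0.1. Biotypes, positions and exon lengths came from GENCODE release 44, matched for 230 of the 233 genes, and promoters from RefSeq. Gene families were taken by patterns in the gene symbol, so members with other symbols were not counted in them.

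The labels give biological replicates, whose source is 1 cell line. The genes and lists were chosen with earlier results of these data known, and tissues and roles were assigned by hand after the genes were known. Named genes were the 20 protein-coding genes of highest level, the highest per kilobase, up to 4 of each list or class, called genes and those at the limit of the rule, and clone-named or near-identical genes were counted only. Further tubule and neuronal genes, TPH2, and those nearest to a call were named after their values were seen. A few genes that the rule names are not reported here.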

Additional observations from a re-analysis of the deposited data

How the results depend on the processing

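The number of genes depended on the count asked for: it was 530 with at least 1 count in each SCFA library, 143 with 5 and 81 with 10, and 686 when 3 counts summed over Ctrl and TN were allowed, against 233. It was 233 with under 0.5 counts in Ctrl and TN, 184 scaled to the smallest total, and 238 to 317 with 1 library left out. With an unadjusted limma-voom p under 0.05 and over 1.5-fold, 15, 13, 14, 20 and 3 genes passed for PRTN against BUTN, TNPR against TNBU, TNPR against PRTN, TNBU against BUTN and the difference of the time effects. Leaving out each library gave 0 to 4 calls for TNBU against BUTN, 0 to 1 for TNPR against PRTN and 0 to 0 for the other 3 contrasts. The main fit did not pair the samples by replicate number. Over all genes, 15 correlations of deviations between same-numbered libraries were -0.0792 to 0.240, 1 over 0.1. Over the 233 genes the 6 correlations between SCFA groups were -0.0959 to 0.438, the highest between TNPR and TNBU. With a replicate block, limma-voom called 1 gene for TNBU against BUTN, HRNR (log2 1.84, adjusted p = 0.0485), where 79 of all genes were called against 65, and 0 elsewhere. The median difference for PRTN against BUTN was -0.14 from limma-voom against -0.09 and -0.16 to -0.12 with 1 library left out. The others ranged from -0.37 to 0.10 for TNPR against TNBU, -0.08 to 0.20 for TNPR against PRTN and -0.15 to 0.26 for TNBU against BUTN. The cause was not tested. A literal geometric mean removed all 233 genes and gave no value. The median level was 0.361 to 0.373 CPM under other scalings, and the protein-coding share was 70.4% also at 10 counts. Low counts limit what could be detected.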
